A study of Drosophila melanogaster with 8 samples.

Results

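The 10 genes described here are mor and 9 further subunits of the Brahma chromatin remodelling complex: the core genes brm, Snr1, Bap60, Bap55 and Bap111, osa of the BAP form, and polybromo, Bap170 and e(y)3 of the PBAP form. They were found by name in gene tables that list 17868 genes, and all 10 passed the filter on low counts with 9999 genes in all. Polyadenylated RNA was sequenced from circadian clock neurons, isolated from the adult fly brain by sorting about 2000 live (GFP-positive, DAPI-negative) cells per sample. Each of the 4 groups, circadian times (CT) 0, 6, 12 and 18 h, had 2 libraries. All 8 libraries share a genotype: Clk-GAL4 (stock 93198), a driver active in the circadian neurons, with UAS-GFP-NLS and UAS-mor-RNAi (stock 34919). The flies had 5 days of 12 h light and 12 h dark, and were taken on day 2 of constant darkness. The sources used here do not give age, sex or the number of flies per library. Because every library carries the mor RNA interference, the values describe the complex in knockdown cells over the day and do not measure the knockdown, and control libraries were not analysed here.

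The Brahma complex is the fly SWI/SNF remodeller, which uses the energy of ATP to slide or evict nucleosomes. A shared core of the ATPase Brahma (brm) and its partners, among them the scaffold Moira (mor), joins Osa to form BAP, or Polybromo, Bap170 and the e(y)3 product SAYP to form PBAP. In the fly clock, the Brahma protein is known to act together with CLOCK at clock gene chromatin, which makes the supply of its subunits a question of interest in these neurons.

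Total estimated counts ran from 15006258 to 29346348 per library, and a count of 3 corresponded to between 0.102 and 0.2 CPM, the count after scaling for library size. Intervals and floors cover counting error only. The libraries were not alike. Pdf, the neuropeptide of the lateral clock neurons, was at 89.3 CPM in CT6 replicate 1 and 1647 CPM in CT18 replicate 1, against 8822 to 37190 CPM in the other 6, whereas the pan-neuronal gene elav stayed within 82.7 to 129.3 CPM in all 8. In bulk RNA, fewer cells of a type and less RNA per cell cannot be told apart. CT6 replicate 1 also favoured long transcripts: across 5766 genes the Spearman correlation of its deviation from the other libraries with effective length was 0.684. It was −0.533 and −0.563 in the CT18 libraries, which favoured short ones, and between −0.342 and 0.468 in the other 5. Summed markers of glia were at 98.2 to 249 CPM over 5 genes, mostly nrv2 (66.6 to 124 CPM) and Gs2 (25.2 to 129.8 CPM). Those of photoreceptors were at 276 CPM in CT18 replicate 2, where the opsin gene ninaE was at its highest (177 CPM). Elsewhere they were at 94.2 to 163 CPM over 5 genes, mostly norpA (87.2 to 143.2 CPM in the 8 libraries). The fat body sum (75.3 to 131 CPM over 4 genes) was nearly all FASN1 (74.6 to 130.5 CPM), with Lsp2, Yp1 and Yp2 at no more than 0.035, 2.19 and 1.61 CPM. Hemocyte markers (4 genes) were at 101 CPM in CT12 replicate 1 and at most 39.8 CPM elsewhere, and the Kenyon cell list (4 genes) held 238 to 496 CPM. The defining glial gene repo was at 0 in 1 library and at most 0.714 CPM elsewhere, ninaE was at 0 in 1 library, and the fat body gene Lsp2 was at 0 in 7. The part of these differences in the results below was not tested, beyond leaving out each library and removing the length trend.

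Per length, the core of the complex was split into 3 abundant transcripts and 3 scarce ones. Levels between genes are compared in the deposited TPM (transcript abundance scaled to library size), which correct for effective length. Snr1, the fly SNF5-type subunit, had a median of 95.9 TPM over the 8 libraries (85.1 to 120.4). Bap60, a structural subunit that contacts transcription factors, had a median of 96.4 TPM (77.6 to 122.2). Bap55, an actin-related protein, had a median of 119 TPM (79.2 to 144.3). These 3 lay above 84% of all tested genes in median TPM, at percentiles 84.6, 84.8 and 87.3. Together they made up 87.8% to 95.4% of the summed TPM of the 10 genes.

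The other core transcripts were far lower. The median was 6.75 TPM for brm, the ATPase (3.92 to 11.9), 3.25 TPM for mor, the scaffold and the target of the interference (1.15 to 7.17), and 1.25 TPM for Bap111, an HMG-box protein (1.12 to 9.11). The BAP subunit osa, an ARID-domain DNA-binding protein, had a median of 3.64 TPM (2.68 to 5.49). Among PBAP subunits, polybromo, which carries bromodomains, had a median of 2.64 TPM (1.06 to 6.24). Bap170, also with an ARID domain, had 1.9 TPM (1.25 to 3.46), and e(y)3, with PHD fingers, had 1.87 TPM (1.1 to 2.69). The BAP and PBAP signature subunits and mor thus lay between percentiles 25.4 and 32.5 of all tested genes.

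**Figure D1:**
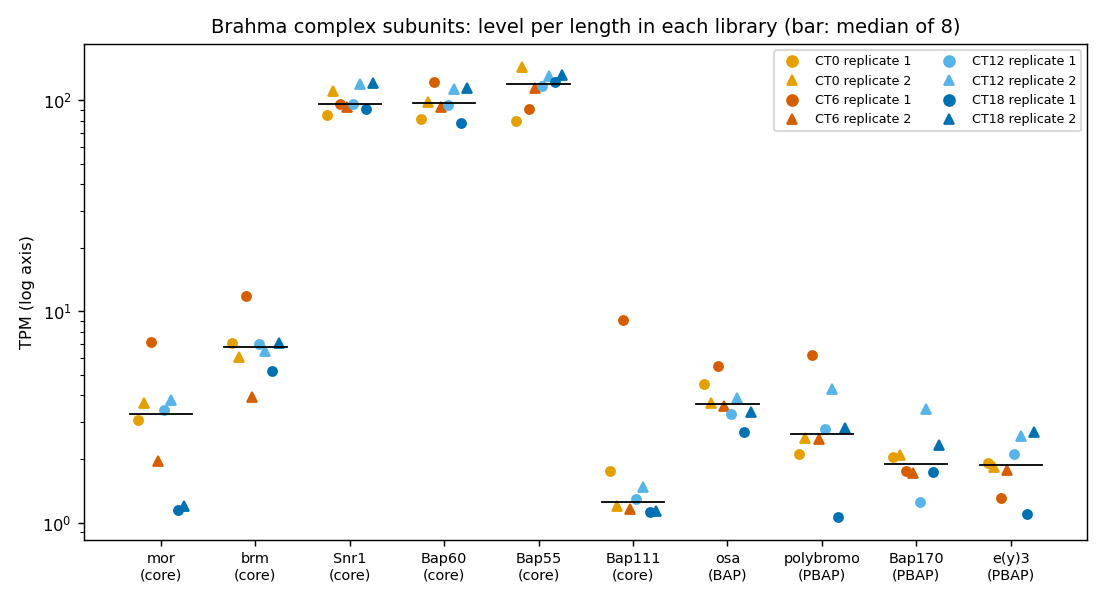
Level per length (TPM, log axis) of the 10 subunit transcripts, with 1 point per library coloured by circadian time and a bar at the median of the 8 libraries. Snr1, Bap60 and Bap55 lie between 77.6 and 144.3 TPM, all others at or below 11.9 TPM. CT6 replicate 1 (dark orange circle) is the highest library for mor, brm, Bap60, Bap111, osa and polybromo.

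The abundant subunits are also the shortest. Snr1 (3R 5470926 to 5472754, plus strand) has 1 annotated transcript of 1335 bases, Bap55 (2R 17429353 to 17430963, minus strand) has 1 of 1473 bases, and Bap60 (X 13157445 to 13159508, minus strand) has 1 of 1936 bases. Transcripts of brm (3L 15970082 to 15982869, minus strand) run from 5322 to 5553 bases, and those of osa (3R 17687818 to 17718350, minus strand) from 9940 to 10714 bases. The single transcripts of polybromo (3R 24799967 to 24805259, minus strand) and Bap170 (2R 6636512 to 6642358, plus strand) measure 5119 and 5316 bases. Those of e(y)3 (X 19626548 to 19638369, minus strand) measure 6531 to 7784 bases. The 2 transcripts of mor (FBgn0002783, 3R 15968134 to 15972913, minus strand) measure 3791 and 3983 bases. Over all tested genes, median TPM also declined with length: 21.9 TPM for the 3514 genes of 1000 to 2000 bases, 7.51 TPM for the 1634 genes of 3000 to 5000 bases and 4.36 TPM for the 892 genes of 5000 to 20000 bases. Snr1, Bap60 and Bap55 stood above the upper quartile of their length class (67.7 TPM). The level of mor stood below the median of its class, and brm above that of its own. Bap111 (X 9149309 to 9151976, plus strand), with a single exon of 2668 bases, broke the pattern: its median of 1.25 TPM lay below the lower quartile (1.78 TPM) of the 2058 genes of 2000 to 3000 bases. Coordinates are those of the Ensembl annotation in dm6 coordinates.

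Ordered by median TPM, the genes ran Bap55, Bap60, Snr1, brm, osa, mor, polybromo, Bap170, e(y)3 and Bap111. A gap larger than the spread separated Snr1 from brm, where Snr1 was higher in 8 of 8 libraries, with a median ratio of 16.9. The gene brm was above osa in 8 of 8 libraries as well (difference 0.80 ± 0.32 in log2(TPM + 0.1), SD). Other neighbours in the order were not separated beyond their spread. Bap60 exceeded Snr1 in 1 of 8 libraries although its median was higher (difference −0.036 ± 0.17), mor exceeded polybromo in 5 of 8 (0.00016 ± 0.56), and Bap170 exceeded e(y)3 in 5 of 8 (0.093 ± 0.42). The others were Bap55 over Bap60 in 6 of 8 (0.22 ± 0.34), osa over mor in 6 of 8 (0.44 ± 0.65), polybromo over Bap170 in 7 of 8 (0.45 ± 0.72) and e(y)3 over Bap111 in 6 of 8 (0.14 ± 1.21).

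Level differences between 7 pairs, chosen by subunit role, were tested within libraries. The transcript of mor was lower than those of the core genes brm, Snr1 and Bap60 in 8 of 8 libraries: 2.36-fold below brm on average (1.63- to 5.54-fold), 35.7-fold below Snr1 (13.2- to 92.8-fold) and 34.8-fold below Bap60 (16.8- to 88.1-fold). The BAP subunit osa exceeded the PBAP subunits Bap170 (1.85-fold, 1.12- to 3.03-fold) and e(y)3 (1.97-fold, 1.24- to 3.99-fold) in 8 of 8 libraries. Folds are on the log2(TPM + 0.1) scale. Each of these 5 differences had p = 0.00781 in a two-sided exact sign-flip permutation test over 8 libraries, the smallest p it can give, and an adjusted p of 0.0109 over the 7 pairs. Per full instead of effective length, osa exceeded Bap170 in 7 of 8 libraries, by 0.63 log2 units on average (same test, adjusted p = 0.0219). It exceeded e(y)3 in 8 of 8, by 0.84.

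The remaining pairs were not separated. The ratio of osa to polybromo, the signature subunits of BAP and PBAP, in replicates 1 and 2 was 2.08 and 1.46 for CT0, 0.882 and 1.42 for CT6, 1.17 and 0.908 for CT12, and 2.39 and 1.19 for CT18. The transcript of osa was thus higher in 6 of 8 libraries, with a mean difference of 0.44 ± 0.52 in log2(TPM + 0.1) (SD, n = 8; exact permutation p = 0.0469, adjusted p = 0.0547). The difference was 0.53 without CT6 replicate 1 and 0.52 without CT12 replicate 2, the libraries in which polybromo was higher. Each had an adjusted p of 0.0365 in the same exact permutation test. Leaving out any other library gave 0.32 to 0.47, with an adjusted p of 0.0781 to 0.109 in that test. The difference of mor from osa was −0.44 ± 0.65 (exact permutation p = 0.102, adjusted p = 0.102), with mor higher in 2 of 8 libraries. Per full instead of effective length these differences were 0.19 and −0.26, and without any length correction both pass; osa is the longest of the 10 transcripts.

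**Figure D2:**
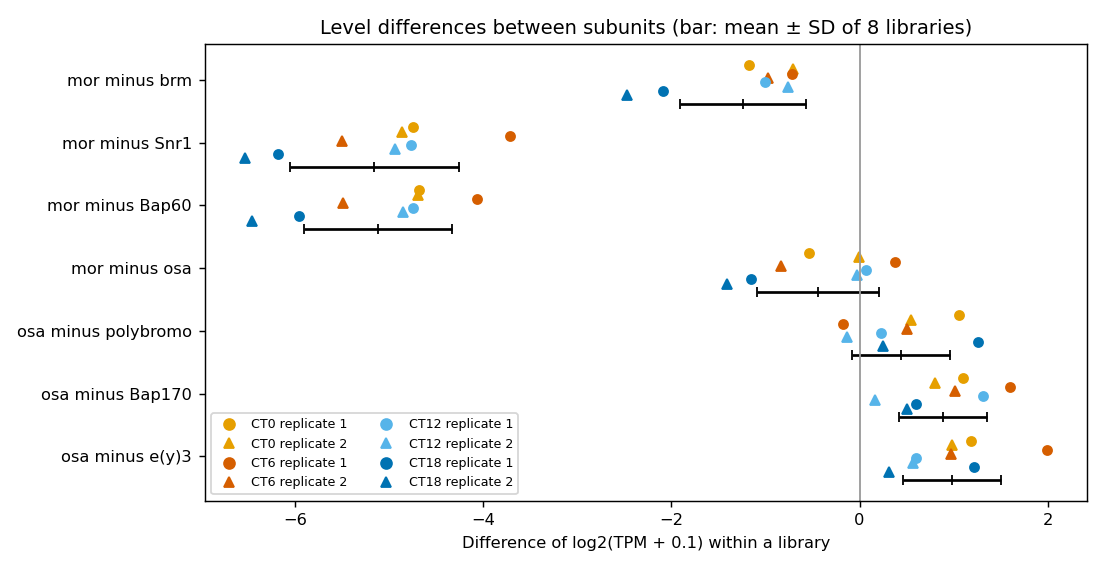
Differences of log2(TPM + 0.1) between pairs of subunits within each library (points, coloured by time), with the mean ± SD of 8 libraries beneath as a bar. The mor transcript lies below brm, Snr1 and Bap60 in every library, and the 2 CT18 libraries (dark blue) are the lowest in each of the 4 pairs that start with mor.

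Over the day, the transcript of mor itself was lowest in the middle of the subjective night. Values over time are in CPM scaled by TMM factors. They were 11.5 and 13.0 CPM at CT0, 21.8 and 7.9 CPM at CT6, 11.4 and 13.2 CPM at CT12, and 4.14 and 4.41 CPM at CT18, from 85 to 602 counts. The CT18 libraries did not overlap with the other 6, whereas the CT6 libraries differed 2.76-fold from each other. By counting error alone, the 95% exact (Clopper-Pearson) intervals were 3.43 to 4.95 and 3.52 to 5.45 CPM for the CT18 libraries, and 6.74 to 9.2 CPM for the next lowest, CT6 replicate 2. Among all tested genes, 6.88% likewise had both CT18 libraries as their lowest, and among the 10 subunits mor and Bap111 did.

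From CT6 to CT18 mor changed by −1.80 ± 0.54 log2 units (SE), with an unadjusted p of 0.00806 in edgeR's quasi-likelihood test and an adjusted p of 0.51 over all genes, so the change did not pass. Without CT6 replicate 1 the change was −0.89 ± 0.50 (adjusted p = 0.97), and without CT6 replicate 2 it was −2.35 ± 0.44 (adjusted p = 0.12). The unadjusted p for any change was 0.0426, and that for a 24-hour harmonic was 0.025 with a fitted amplitude of 0.90 ± 0.27 from mean to peak and a peak at 6.0 h, with edgeR adjusted p of 1 and 0.87. The amplitude was 0.44 without CT6 replicate 1 and ran up to 1.18 (without CT6 replicate 2). CT12 and CT0 were close in mor, with a change of 0.0077 ± 0.52 log2 units.

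The low mor values at CT18 were also seen against other subunits in the same libraries. Relative to brm, mor was 4.26- and 5.54-fold lower in the CT18 libraries and between 1.63- and 2.27-fold lower in the other 6. Relative to osa, it was 2.22- and 2.66-fold lower at CT18, and in the other 6 it ranged from 1.79-fold lower (CT6 replicate 2) to 1.3-fold higher (CT6 replicate 1). Both of these partners are longer than mor. The fitted length trend in the CT18 libraries was −0.28 and −0.27 log2 units for mor. It was −0.22 and −0.21 for brm, and −0.16 and −0.13 for osa. The part of length in these ratios was not tested. Of 9998 tested genes, 2.16% had both CT18 libraries lowest relative to brm and 0.69% relative to osa. Relative to Snr1 mor was 72.8- and 92.8-fold lower at CT18, against 13.2- to 45.3-fold in the other libraries, and 8.66% of genes shared that order. Relative to Bap60 it was 62.2- and 88.1-fold lower, against 16.8- to 45-fold, and 4.88% of genes shared it. These 4 ratios share mor and were examined after the CT18 values were known, so they are a description.

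In the libraries where mor was furthest from its mean, the length trend had the same sign as its deviation, whereas in CT0 replicate 1 (trend −0.094, deviation 0.26) and CT12 replicate 1 (trend −0.031, deviation 0.25) the signs were opposite. At the length of mor, the fitted trend was −0.28 and −0.27 log2 units in the CT18 libraries and 0.46 in CT6 replicate 1. The mor transcript deviated from its own mean by −1.20 and −1.11 in the CT18 libraries, and by 1.18 in CT6 replicate 1. With the trend removed, these became −0.92, −0.84 and 0.73, and the CT18 libraries were still the lowest of the 8. The CT18 minus CT6 difference was then −1.14 ± 0.43 (limma adjusted p = 0.73). The spread of mor between libraries of the same time fell from 0.53 to 0.33 log2 units with the trend removed, against medians of 0.42 and 0.37 over all tested genes.

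**Figure D3:**
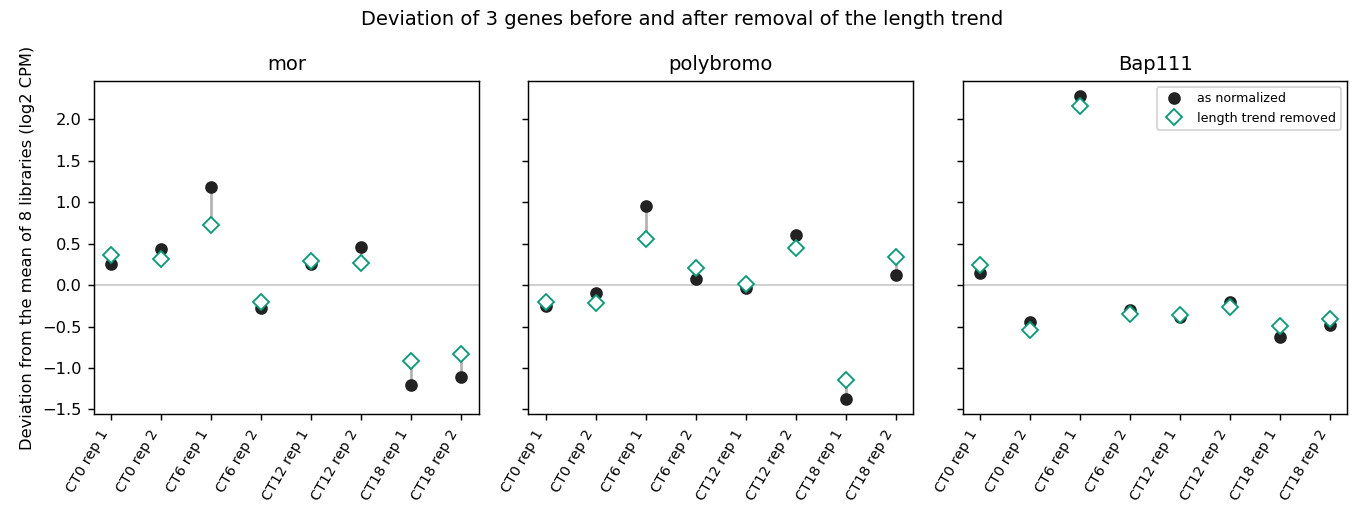
Deviation of mor, polybromo and Bap111 from each gene's mean over 8 libraries (log2 CPM), as normalized (black circles) and with each library's length trend removed (open diamonds). For mor both CT18 libraries are lowest on either scale, for polybromo CT18 replicate 1 alone is low, and for Bap111 CT6 replicate 1 alone is high.

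Bap111 stood out for 1 library. Its level was 3.47 and 2.28 CPM at CT0, 15.3 and 2.52 CPM at CT6, 2.39 and 2.71 CPM at CT12, and 2.02 and 2.23 CPM at CT18. CT6 replicate 1, with 424 counts, was thus 2.13 log2 units above the next library, while the other 7 held 42 to 98 counts. A gap of at least 2-fold above the next library in CT6 replicate 1 occurred in 2.4% of all tested genes. Neither neighbour on the chromosome shared it: fh, 237 bases away, had 13.9 CPM and His3.3B, 546 bases away, had 147 CPM in that library, the lowest of the 8 for each. The change from CT6 to CT18 was −2.07 ± 0.91 log2 units (edgeR unadjusted p = 0.048, adjusted p = 0.51), and without CT6 replicate 1 it was −0.25 ± 0.96.

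The transcript of polybromo varied 5.09-fold over the libraries, close to the 5.27-fold of mor. It was at 11.3 and 12.6 CPM at CT0, 26.2 and 14.2 CPM at CT6, 13.2 and 20.4 CPM at CT12, and 5.14 and 14.6 CPM at CT18. The highest value was in CT6 replicate 1 and the lowest in CT18 replicate 1. The CT18 pair differed 2.83-fold, so that CT18 overlapped with each of the other times. From CT6 to CT18 it changed by −1.04 ± 0.55 log2 units (edgeR adjusted p = 0.53). Without CT18 replicate 1 the change was −0.47 ± 0.56, and without CT18 replicate 2 it was −1.97 ± 0.62 (adjusted p = 0.68).

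The ATPase gene brm ranged 2.21-fold over the libraries. Its level was 37.8 and 30.7 CPM at CT0, 50.5 and 22.8 CPM at CT6, 33.4 and 31.9 CPM at CT12, and 25.4 and 37.3 CPM at CT18. Both the highest and the lowest value belonged to CT6, and the fitted amplitude of a 24-hour harmonic was 0.12 ± 0.19 log2 units (edgeR adjusted p = 1), from 0.037 without CT18 replicate 1 to 0.35 without CT6 replicate 2. The change from CT6 to CT18 was −0.23 ± 0.39 log2 units and turned to 0.46 without CT6 replicate 1.

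The BAP subunit osa ranged 1.84-fold over the libraries. Its level was 38.8 and 30.6 CPM at CT0, 38.7 and 34.4 CPM at CT6, 25.2 and 30.9 CPM at CT12, and 21.1 and 28.7 CPM at CT18. Both CT18 values were below both CT0 and both CT6 values, and the CT12 values overlapped with those of CT0 and CT18. The share of all tested genes with that order was not counted. CT18 replicate 1, the lowest library for osa, was the lowest for 15.2% of them. The SD between libraries of the same time was 0.23 log2 units (percentile 17.5 among tested genes). The change from CT6 to CT18 was −0.55 ± 0.30 log2 units (edgeR unadjusted p = 0.0954, adjusted p = 0.54), with a range of −0.79 to −0.35 when 1 library was left out. The harmonic amplitude was 0.32 ± 0.15, with a fitted peak at 4.1 h (adjusted p = 0.87).

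The abundant core transcripts ranged 1.53- to 1.93-fold over the libraries. Snr1 ran from 87.1 CPM (CT6 replicate 1) to 133.3 CPM (CT18 replicate 2), Bap60 from 122.3 CPM (CT18 replicate 1) to 195.3 CPM (CT18 replicate 2), and Bap55 from 94.0 CPM (CT6 replicate 1) to 181.3 CPM (CT0 replicate 2). The lowest and the highest Bap60 values thus came from the same time, CT18, which spanned the other times. Its CT0 values (142.5 and 161.4 CPM) lay below its CT6 values (170.5 and 172.6 CPM). The share of all tested genes with that order was not counted. For Snr1 and Bap55 all times overlapped. Harmonic amplitudes of Snr1, Bap60 and Bap55 were 0.092 ± 0.14, 0.072 ± 0.13 and 0.16 ± 0.16 log2 units. With 1 library left out they ran from 0.0088 (without CT6 replicate 1) to 0.21 (without CT18 replicate 1) for Snr1, from 0.056 to 0.25 (without CT18 replicate 2) for Bap60, and from 0.0086 (without CT6 replicate 1) to 0.38 (without CT6 replicate 2) for Bap55. Between CT6 and CT18 the changes were 0.18 ± 0.27 for Snr1, −0.11 ± 0.27 for Bap60 and 0.32 ± 0.33 for Bap55, with edgeR adjusted p of 0.73 or more.

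The extremes of the PBAP genes Bap170 and e(y)3 fell within single times. Bap170 was at 11.3 and 10.8 CPM at CT0, 7.71 and 10.4 CPM at CT6, 6.12 and 17.3 CPM at CT12, and 8.72 and 12.8 CPM at CT18. Its lowest and highest libraries were the CT12 pair, 2.83-fold apart. The e(y)3 transcript was at 12.8 and 11.4 CPM at CT0, 7.09 and 12.9 CPM at CT6, 12.6 and 15.6 CPM at CT12, and 6.6 and 17.2 CPM at CT18, and its extremes were the CT18 pair, 2.6-fold apart. Harmonic amplitudes were 0.13 ± 0.28 and 0.17 ± 0.27 log2 units. With 1 library left out they ran from 0.045 (without CT6 replicate 1) to 0.45 (without CT12 replicate 2) for Bap170, and from 0.12 to 0.41 (without CT18 replicate 1) for e(y)3.

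**Figure D4:**
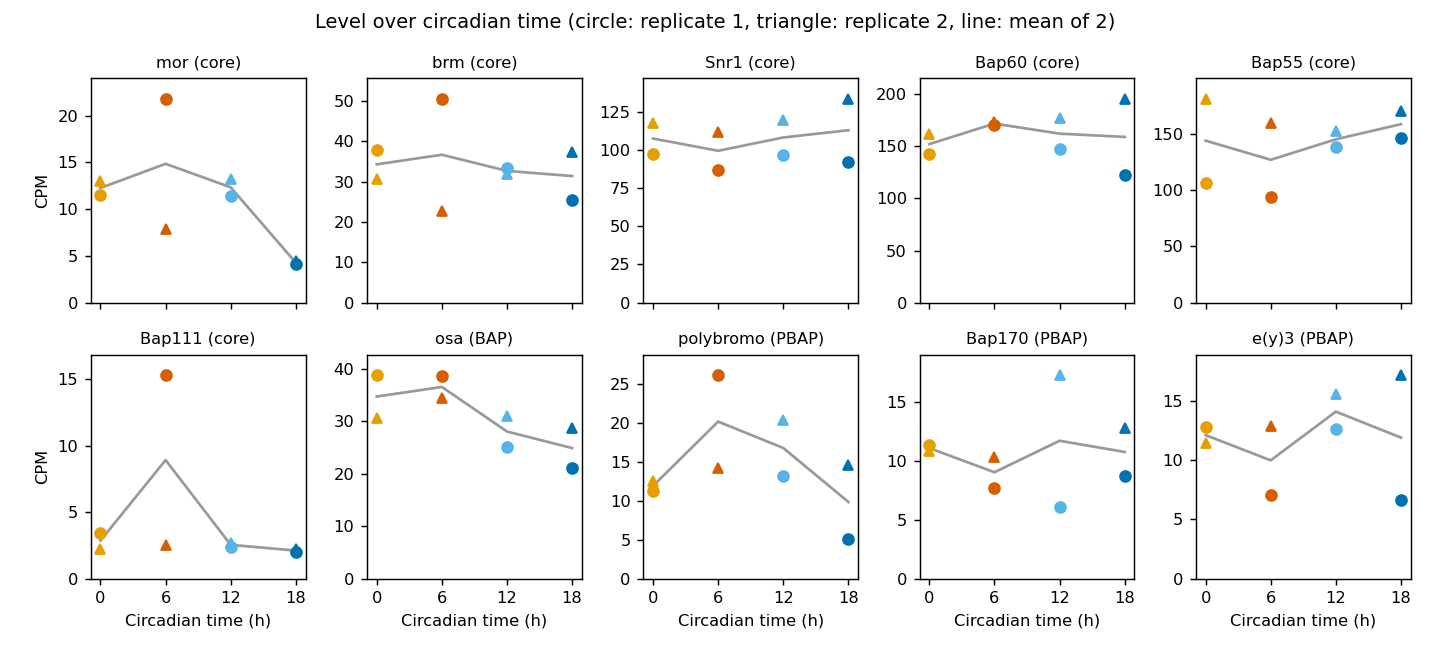
Level of each subunit transcript (CPM, axis from 0) against circadian time, with replicate 1 as circles, replicate 2 as triangles and the mean of 2 as a line. The CT18 pair of mor sits at 4.14 and 4.41 CPM, below all its other libraries, and the CT6 point of replicate 1 is highest for mor, brm, Bap111 and polybromo.

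In the tests across all genes, 0 of the 10 subunits passed edgeR's quasi-likelihood test after Benjamini-Hochberg adjustment for any change over time, for a 24-hour harmonic, for CT12 minus CT0 or for CT18 minus CT6, against a background of 0.0% of the 9999 genes in each. At an unadjusted p under 0.05, 1 subunit stood for any change (mor; 3.3% of all genes), 1 for the harmonic (mor; 5.17%), 0 for CT12 minus CT0 (2.11%) and 2 for CT18 minus CT6 (mor and Bap111; 9.65%). DESeq2 called 0 subunits in each test (it gave Bap111 no adjusted p for any change, which left 9 of the 10 there), against 0.37%, 0.37%, 0.12% and 0.52% of all genes, and so did edgeR without its filter on low counts, against 1.84%, 1.85%, 0.748% and 1.42%. No subunit passed in any of the 18 alternative settings in which it had an adjusted p, Bap111 having dropped out where 5 CPM in 2 libraries was required, and the smallest adjusted p was 0.123 (mor, CT18 minus CT6, without CT6 replicate 2). No label states whether replicates came from separate flies, so a p-value here reflects spread among the libraries, which may be technical.

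The direction of change was mixed within the complex. From CT6 to CT18, 6 of the 10 genes were lower and 4 higher (Snr1, Bap55, Bap170 and e(y)3), with a median of −0.17 log2 units, against 51.2% lower and a median of −0.020 over all tested genes. From CT0 to CT12, 3 were lower and 7 higher, with a median of 0.011 (all genes, 0.0040). The median harmonic amplitude was 0.16 log2 units, against 0.29 over all tested genes, a background not matched for level or spread. CT6 replicate 1 was the highest of the 8 libraries for 4 subunits in CPM (mor, brm, Bap111 and polybromo; 23.4% of all genes), and CT18 replicate 1 was the lowest for 6 (mor, Bap60, Bap111, osa, polybromo and e(y)3; 15.2% of all genes).

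Correlations between subunit transcripts across the 8 libraries were of both signs. Of the 45 pairs of genes, 30 had a positive Pearson correlation of log2 CPM, with a median of 0.28, and with the length trend removed 32 did, with a median of 0.23. The gene most like mor among the subunits was polybromo (0.715), and with the trend removed it was Bap111 (0.575). Among 9998 tested genes these ranked only 999 and 978 in likeness to mor on those scales. Snr1 was most like e(y)3 (0.807), Bap60 most like polybromo (0.781), and Bap55 most like Snr1 (0.781). Bap170 was most like Snr1 (0.72), osa most like polybromo (0.69), and brm and Bap111 were most like each other (0.757). With the trend removed, the highest values were between Bap60 and polybromo (0.874), Snr1 and Bap60 (0.776), and the PBAP partners Bap170 and e(y)3 (0.677), while brm and mor were near 0 (0.017). The most negative pair was Bap55 and Bap111 (−0.818, and −0.799 with the trend removed). These values rest on 8 libraries that share depth and length effects. Bap111 was furthest from its mean in CT6 replicate 1 (2.28 log2 units), and its correlations were not computed without that library.

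**Figure D5:**
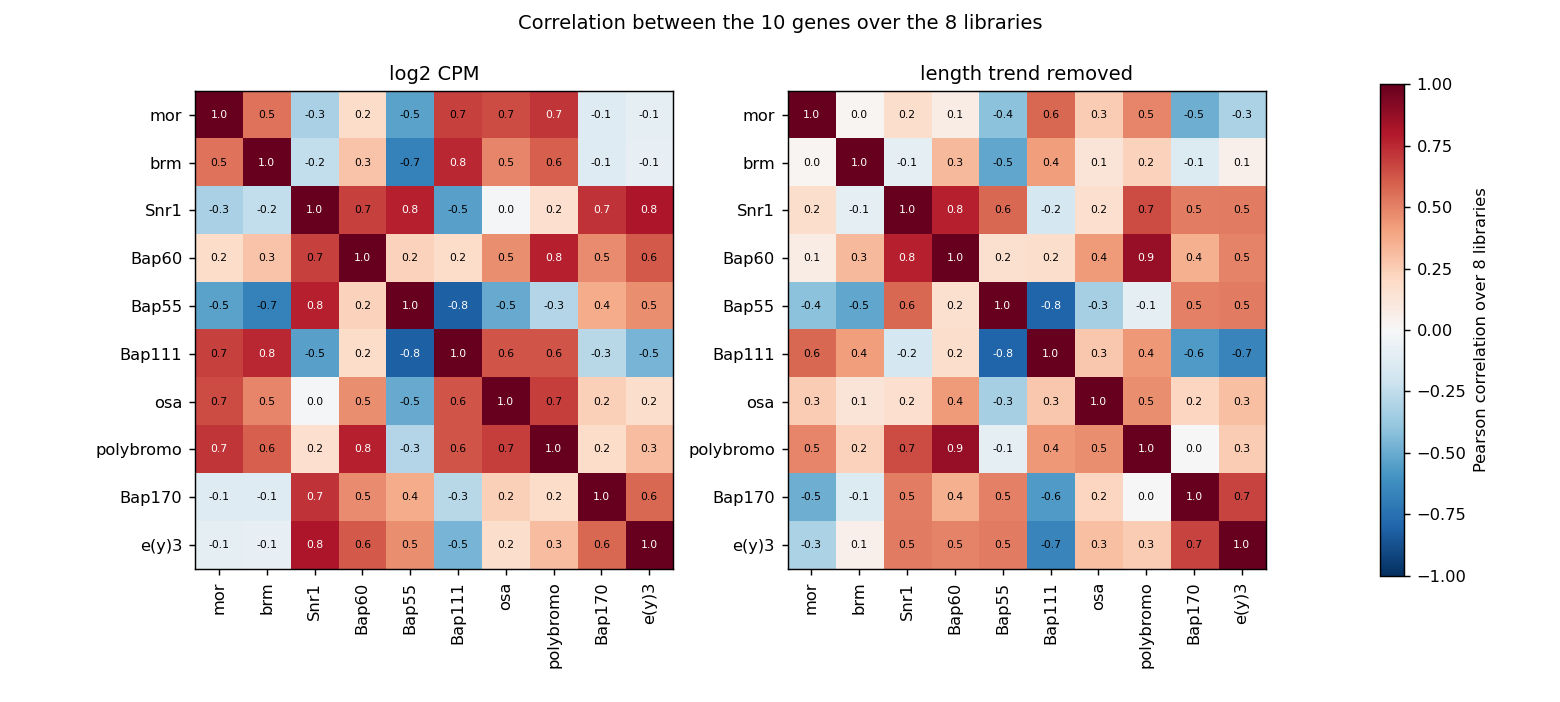
Pearson correlation between the 10 subunit transcripts over 8 libraries, for log2 CPM (left) and with each library's length trend removed (right), from −1 (blue) to 1 (red). The pair of Bap60 and polybromo is high on both scales (0.781 and 0.874), and the pair of mor and brm goes from 0.547 to 0.017.

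Among all tested genes, the patterns most like that of mor belonged to smog (Pearson 0.989), CG1129 (0.969), dpr8 (0.969), Nmdar2 (0.965) and Su(dx) (0.963). smog encodes a G protein-coupled receptor, dpr8 a cell surface immunoglobulin protein, Nmdar2 a glutamate receptor subunit and Su(dx) a ubiquitin ligase. The smog transcript was at 118 and 128 CPM at CT0, 165 and 112 CPM at CT6, 123 and 136 CPM at CT12, and 80.2 and 85.4 CPM at CT18, so its lowest values were also at CT18, over a range of 1.04 log2 units against 2.39 for mor. With the length trend removed, the most like genes were CG1129 (0.987), CG33284 (0.965), Ir62a (0.954), asRNA:CR46262 (0.945) and CG7920 (0.933), so CG1129 alone was in both sets of 5. CG33284 and Ir62a were at 0 in both CT18 libraries and at most 0.615 and 3.04 CPM elsewhere. A correlation above 0.9 with mor was held by 96 genes, and by 23 with the trend removed.

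Genes that work with the complex did not pass either, nor did any other of the 9999 tested genes in edgeR. Of 5 Brahma-associated genes (tth, CG7154, BCL7-like, Act5C and Act42A), 0 passed any of the 4 tests. At an unadjusted p under 0.05 in edgeR there were also 0 of the 5, against 2.11% to 9.65% of all genes across the 4 tests. The smallest p for any change in edgeR's test belonged to Act5C, a cytoplasmic actin (unadjusted p = 0.332; 1997 to 2866 CPM), and BCL7-like (unadjusted p = 0.666; 27.6 to 42.3 CPM), each with an edgeR adjusted p of 1. Reads of Act5C and Act42A may be shared between near-identical actin copies. Of 10 trithorax group partners (trx, ash1, ash2, z, tna, tara, skd, kto, Trl and kis), 0 passed, and from CT6 to CT18 9 of 10 were lower, with a median of −0.54 log2 units, against 51.2% and −0.020 over all tested genes. In that contrast 1 of the 10 had an unadjusted p under 0.05, against 9.65% of all genes. The background of all genes was not matched to this list for length. CT6 replicate 1 favoured long transcripts and the CT18 libraries short ones, and the part of length here was not tested. For any change the smallest edgeR p in this list belonged to kto, a Mediator kinase module subunit (unadjusted p = 0.112; 1.2 to 6.84 CPM), and z, the Zeste DNA-binding protein (unadjusted p = 0.116; 28.4 to 91.9 CPM), each with an edgeR adjusted p of 1. Their changes from CT6 to CT18 were −1.59 ± 0.77 and −1.02 ± 0.45 log2 units, with an edgeR adjusted p of 0.52 and 0.51. For scale, the clock neuron markers with the smallest p for any change in the same fit were vri (unadjusted p = 0.00502) and Clk (unadjusted p = 0.00509), with harmonic amplitudes of 1.33 and 1.42 log2 units and edgeR adjusted p of 1 for any change.

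Overlap with other genes was small. Annotated exons of mor share 5 of 3983 bases with Rbf2 on the opposite strand, which was at 3.11 to 10.6 CPM and highest in CT0 replicate 1 (10.6 CPM), and those of e(y)3 share 54 of 9155 bases with CG14212 (at most 0.129 CPM). The other 8 subunit genes have no exonic overlap in the annotation. The sources used here do not say if counting was strand-specific.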

How the data were processed

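Gene tables in Salmon layout were used for 8 libraries. The authors deposited estimated counts per gene, not normalized, per the file headers. The deposited TPM values, per the file headers, are scaled by effective length. The submitters' processing notes list DRAGEN, Salmon and dm6 without roles or versions, and no annotation is given in the sources used here. Estimated counts were rounded to integers, and 9999 of 13499 genes with a count passed filterByExpr (minimum count 10). The main test was edgeR 4.0.16 (R 4.3.3) with TMM factors, glmQLFTest and time as a factor on all 8 libraries (4 residual degrees of freedom), adjusted over all 9999 genes by Benjamini-Hochberg at 0.05. Changes are log2 values with standard errors. Levels were compared between genes in log2(TPM + 0.1) by exact sign-flip tests, two-sided. Each library's lowess trend (span 0.3) against effective length used genes averaging a log2 CPM of 4 or more. The alternatives were RLE factors, no filter, 5 CPM in 2 libraries, DESeq2 1.42.0, limma 3.58.1 (voom, or log2 TPM with pseudocounts of 1 and 0.1), a replicate block, a length offset, the length trend removed, and each library left out. For levels they were a pseudocount of 1, full length, no length correction, averages within times and each library left out. The fitting step was tested on simulated data. Named genes are the 10 members, the 5 most like mor on each scale, and the 2 with the smallest p per list. Members and lists were chosen with earlier results of these data known. Coordinates are from Ensembl release 115 (BDGP 6.54, dm6 coordinates), which need not be the annotation the authors used. Python 3.11.15 was used with pandas 2.3.3, numpy 2.4.6 and scipy 1.17.1, and matplotlib 3.10.9 drew the figures. Sequences of the subunits are not shown.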

Additional observations from a re-analysis of the deposited data

How the results depend on the processing

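No subunit passed under the 18 alternatives to the 4 tests over time wherever it had an adjusted p; Bap111 had none with 5 CPM in 2 libraries required, nor for any change in DESeq2. Counts over all genes were 0 except without the low-count filter (249 for any change, 250 for the harmonic, 101 for CT12 minus CT0 and 192 for CT18 minus CT6) and with DESeq2 (37, 37, 12 and 52). Log2 changes that did not pass turned sign as follows. For CT12 minus CT0, limma-voom gave −0.011 for mor, −0.0016 for Snr1 and −0.28 for Bap170; a length offset gave −0.036 for mor; log2 TPM gave 0.035 (pseudocount 1) and 0.040 (0.1) for brm; and the length trend removed gave −0.057 for mor and −0.12 for Bap170. For CT18 minus CT6, the trend removed gave 0.22 for brm and −0.043 for Snr1. With 1 library left out, CT12 minus CT0 ran from −0.10 to 0.11 for mor, −0.21 to 0.088 for brm, −0.15 to 0.15 for Snr1, −0.047 to 0.22 for Bap60, −0.32 to 0.44 for Bap55, −0.45 to 0.16 for Bap111 and −0.86 to 0.64 for Bap170. CT18 minus CT6 ran from −0.69 to 0.46 for brm, −0.11 to 0.43 for Snr1, −0.49 to 0.19 for Bap60, −0.012 to 0.76 for Bap55, −0.051 to 0.50 for Bap170 and −0.59 to 0.79 for e(y)3. The cause of these turns was not tested. For mor CT18 minus CT6 kept its sign, from −2.35 to −0.89.

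No label says what the replicate numbers share, so they were not taken as pairs. Same-numbered deviations correlated by −0.066 to 0.23 over 9999 genes, and 6 of 8 libraries correlated best with their own number. The 2 libraries of a time are mirror images in this measure and always give the same answer, so that count cannot decide on pairing. With the replicate block, 0 genes passed in each test, and CT12 minus CT0 turned to −0.077 for Bap170. Averaging the 2 libraries within each time, which does not use the replicate numbers, leaves 4 values. These cannot give a p under 0.125 in the exact permutation test. The level differences of mor from brm (−1.24), Snr1 (−5.16) and Bap60 (−5.12) thus had an adjusted p of 0.146 at the same size. So did those of osa from Bap170 (0.89) and e(y)3 (0.98). Without length correction, mor minus osa (−1.66) and osa minus polybromo (1.18) passed. The latter ran from 0.32 to 0.53 with 1 library left out. Bap111 had 42 to 98 counts in 7 libraries, so counting error is largest there among the subunits.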
